A study of Homo sapiens with 8 samples.

Results

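The genes described here were the secreted Wnt proteins, the machinery that releases them, their receptors and the proteins that modulate them, in the non-small cell lung cancer (NSCLC) lines NCI-H1581 and NCI-H1703 and in variants of both that had acquired resistance to the FGFR inhibitor CPL304110. They were chosen by symbol from a list of 59. A symbol was kept when its row of the gene count table summed to 10 or more counts across all 8 libraries, which left 54 among the 18203 genes that passed the same minimum. The other 5 were WNT1, WNT2, WNT8B, WNT9B and SFRP4, with 0, 2, 6, 3 and 8 counts in all. Of the 54, WNT3A, WNT7A, FZD9, RSPO3 and SFRP2 reached the minimum through a single variant.

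RNA was sequenced from 4 variants with 2 replicates each. NCI-H1581 (sensitive) and NCI-H1703 (sensitive) were the starting lines. NCI-H1581R and NCI-H1703R (resistant) had been grown in rising CPL304110 from 50 nM to final concentrations of 2.5 and 5 µM, over 4 to 6 months. NCI-H1581 and its variant were kept in DMEM/F12 and NCI-H1703 and its variant in RPMI 1640, so line and medium cannot be told apart. All dishes were harvested 24 h after fresh medium, and whether that medium held the inhibitor was not given in the sources used here. Nothing in the labels said whether a resistant variant was 1 clone or a mixed population. In such bulk RNA, fewer cells that make a transcript and less RNA per cell cannot be told apart.

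Wnt proteins are lipid-modified in the endoplasmic reticulum by the acyltransferase PORCN and carried to the cell surface by the transport protein WLS. At the receiving cell they bind a Frizzled receptor (FZD) together with the co-receptor LRP5 or LRP6, which halts the breakdown of beta-catenin and lets it act with TCF/LEF factors on target genes. R-spondins (RSPO) bind LGR receptors and spare Frizzled from the ubiquitin ligases RNF43 and ZNRF3. DKK proteins, secreted Frizzled-related proteins, WIF1 and NOTUM oppose the signal outside the cell, and AXIN2 and NKD proteins oppose it inside. AXIN2, NKD1, RNF43, ZNRF3, LEF1 and NOTUM are also known as targets of the pathway in many cell types. Wnt signals act in the developing lung and in progenitors of the adult alveolus.

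The bases upstream of the start site are shown for WLS, WNT6 and WIF1, which fell in both resistant variants, and for DKK1, which moved in opposite directions in them. They came from RefSeq on GRCh38.p14 and are written 5′ to 3′ on the gene's own strand. For WLS only the 113 bases outside annotated exons are given, at chr1:68232547-68232659 on the minus strand. The others are the 250 bases before the start, at chr2:218859555-218859804 (WNT6, plus strand), chr12:65121306-65121555 (WIF1, minus strand) and chr10:52314031-52314280 (DKK1, plus strand). Capitals mark a TCF/LEF core, CTTTGAA or CTTTGAT, searched on both strands.
WLS: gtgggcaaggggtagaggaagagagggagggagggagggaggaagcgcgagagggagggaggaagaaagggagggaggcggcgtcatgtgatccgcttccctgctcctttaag
WNT6: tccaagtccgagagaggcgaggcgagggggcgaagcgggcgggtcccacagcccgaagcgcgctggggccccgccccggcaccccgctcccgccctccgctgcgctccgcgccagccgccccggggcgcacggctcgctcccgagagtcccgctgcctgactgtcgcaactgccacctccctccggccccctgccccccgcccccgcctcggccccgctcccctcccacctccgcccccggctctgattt
WIF1: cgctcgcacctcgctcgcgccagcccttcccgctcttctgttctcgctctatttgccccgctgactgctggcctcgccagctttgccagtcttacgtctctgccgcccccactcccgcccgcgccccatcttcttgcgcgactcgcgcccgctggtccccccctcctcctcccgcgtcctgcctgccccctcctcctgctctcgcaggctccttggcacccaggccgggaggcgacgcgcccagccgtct
DKK1: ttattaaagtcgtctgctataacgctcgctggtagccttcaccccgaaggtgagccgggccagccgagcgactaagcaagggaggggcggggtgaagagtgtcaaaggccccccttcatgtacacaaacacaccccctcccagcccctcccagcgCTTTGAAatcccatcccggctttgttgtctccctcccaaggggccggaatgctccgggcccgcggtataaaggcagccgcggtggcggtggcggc
A core was found in 1 of 46 upstream windows of the 35 genes that matched the RefSeq table, the DKK1 window at position -95 from the start. That is 2.17% of these windows, beside 5.94% of all 35116 windows of the same length. No AXIN2 promoter was in the table.

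The libraries held 33800389 to 40031710 counts. Levels are given as CPM, the counts in 1000000 counts of a library after scaling by TMM factors over the 8 libraries, and 3 counts correspond to 0.0749 to 0.0897 CPM. The mesenchymal list (VIM, CDH2, FN1 and ZEB1) summed to 2666 to 6716 CPM, of which VIM alone had 2634 to 6711, and the epithelial list was low (EPCAM, CDH1, KRT8, KRT18 and KRT19 together had 6.76 to 75.6 CPM). SFTPC of alveolar cells and CD3E of T cells had 0 counts in every library. Of the other genes of the lung adenocarcinoma list, SFTPB had 40 to 92 counts a library and NAPSA 7 to 28. NKX2-1 of that list had 13.6 to 59.5 CPM in NCI-H1581 and NCI-H1581R and 0.159 to 0.718 CPM in NCI-H1703 and NCI-H1703R. The endothelial list summed to at most 0.449 CPM, and the leukocyte list was carried by CD68, with 0 to 15 counts for PTPRC. KRT5 had 0 or 1 counts in replicate 1 of each variant and 35 to 47 in replicate 2.

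**Figure D1:**
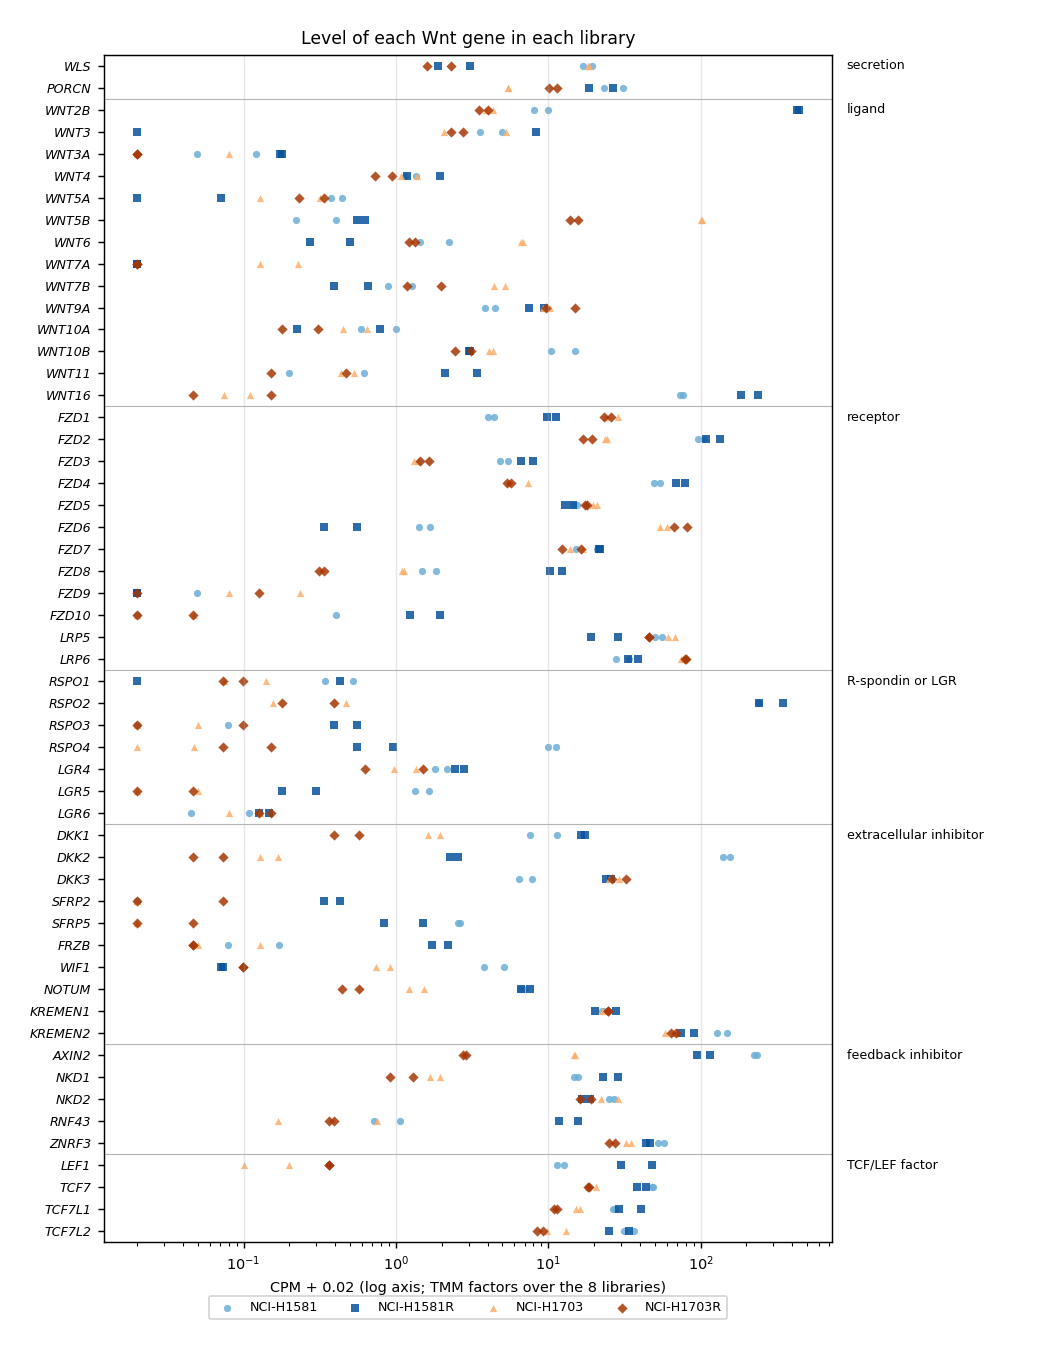
Level of each of the 54 Wnt genes in each of the 8 libraries, in CPM with 0.02 added so that 0 can be drawn on the log axis, grouped by role. Each point is 1 library, and its colour and shape give the variant. WNT2B and WNT16 lay highest among the ligands in NCI-H1581R and WNT5B in NCI-H1703, while the points of RSPO2 and DKK2 for NCI-H1703 and NCI-H1703R lay under 0.5 CPM.

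Before selection the lines held different Wnt genes. Of the 54 genes, 35 differed between the sensitive lines and were called, that is, had an adjusted p under 0.1 (edgeR quasi-likelihood test with Benjamini-Hochberg adjustment over all genes tested, as for every adjusted p below), with 11 higher and 24 lower in NCI-H1703. Among the 11 was WNT7A, which reached the count minimum only through NCI-H1703. Over all genes 62.9% were called in this comparison, 32.5% higher and 30.4% lower, so the share of 64.8% among Wnt genes was near the background. The 4 TCF/LEF factors were all lower in NCI-H1703, as were 4 of the 7 R-spondin and LGR genes. Cell type markers differed as well. The fibroblast list summed to 6501 to 6726 CPM in NCI-H1581 and 5.51 to 6.43 CPM in NCI-H1703, with 6 of 6 called lower. Of the mesenchymal list 3 of 4 were called higher in NCI-H1703 and 1 lower, and of the epithelial list 2 of 5 higher and 1 lower. The part of the markers in the Wnt differences was not tested.

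The ligands differed by line. Per kilobase of exon, WNT16 had the highest level of the ligands in NCI-H1581 (23.0 CPM per kb) and WNT5B in NCI-H1703 (24.0 CPM per kb). WNT16 had 77.2 and 73.2 CPM in NCI-H1581 and 0.0541 and 0.0897 CPM in NCI-H1703. In counts the gene was 1057 times higher in NCI-H1581, with a 95% counting interval of 452.6 to 3256. WNT5B, a ligand mostly known from signalling without beta-catenin, had 0.386 and 0.200 CPM in NCI-H1581 and 102 and 101 CPM in NCI-H1703 (log2 difference 8.46 ± 0.21 SE, adjusted p = 1.39e-07).

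Among receptors, FZD6 was the largest difference. It had 1.40 and 1.65 CPM in NCI-H1581 and 54.2 and 59.8 CPM in NCI-H1703 (log2 difference 5.21 ± 0.19, adjusted p = 6.47e-07). FZD4 went the other way, with 54.1 and 49.3 CPM in NCI-H1581 against 5.43 and 7.39 CPM in NCI-H1703 (-3.02 ± 0.17, adjusted p = 5.52e-06). Per length the first Frizzled was FZD2 in NCI-H1581 (26.6 CPM per kb) and FZD6 in NCI-H1703 (14.0 CPM per kb).

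RSPO2 and RSPO4 were expressed in NCI-H1581 and lay under 0.5 CPM in NCI-H1703. RSPO2, a potent agonist that works through LGR receptors, had 241 and 237 CPM in NCI-H1581 and 0.135 and 0.449 CPM in NCI-H1703 (-9.70 ± 0.22, adjusted p = 1.02e-07). The RSPO4 counts were 376 and 396 in NCI-H1581 but 1 and 0 in NCI-H1703, a ratio of 737.3 with a counting interval of 131.9 to 29160. The inhibitor DKK2 was likewise present in NCI-H1581 (140 and 156 CPM) and near the floor of 3 counts in NCI-H1703 (0.108 and 0.149 CPM), a log2 difference of -10.14 ± 0.24 (adjusted p = 7.61e-08).

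Of the 5 feedback genes AXIN2, NKD1 and ZNRF3 were lower in NCI-H1703, and NKD2 and RNF43 were not called. AXIN2, the scaffold whose transcript is widely used to read beta-catenin activity, had 235 and 225 CPM in NCI-H1581 and 14.9 and 14.7 CPM in NCI-H1703 (-3.96 ± 0.11, adjusted p = 1.81e-07). NKD1 had 15.6 and 14.8 CPM against 1.92 and 1.65 CPM (-3.08 ± 0.22, adjusted p = 1.90e-05). LEF1 had 12.6 and 11.4 CPM against 0.0811 and 0.179 CPM (-6.51 ± 0.40, adjusted p = 6.04e-06).

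In NCI-H1581R, 25 of the 54 Wnt genes were called against NCI-H1581, 14 higher and 11 lower. RSPO3, among the 14, passed the count minimum through NCI-H1581R alone. Over all genes 15.1% were called, 7.63% higher and 7.44% lower, and 46.3% of the Wnt genes. The median log2 fold change was 0.15 over the Wnt genes and 0.04 over all genes. Calls fell in every role. Of the 14 ligands 4 rose and 2 fell, of the 12 receptors 3 rose and 2 fell, and of the 10 extracellular inhibitors 3 rose and 3 fell. In a separate fit of only the genes that reached 10 counts in all 4 libraries, 21 of 38 Wnt genes were called, beside 20.1% of all such genes. Among the 21 were FZD4 and SFRP5, which were not called in the main fit.

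Of the release machinery 1 of 2 genes was called. WLS had 19.4 and 16.9 CPM in NCI-H1581 and 3.06 and 1.88 CPM in NCI-H1581R, and it fell by 2.87 ± 0.29 on the log2 scale (adjusted p = 0.00176). PORCN had 31.0 and 23.2 CPM against 26.7 and 18.4 CPM, with libraries that overlapped, and was not called (adjusted p = 0.601).

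Ligand transcripts rose in sum. Summed per kilobase of exon over the 14 ligands, NCI-H1581 held 34.3 and 30.8 CPM per kb and NCI-H1581R 114.7 and 98.1 CPM per kb. In NCI-H1581R WNT16 reached 64.9 CPM per kb and WNT2B, a ligand of the beta-catenin branch, 35.3 CPM per kb. WNT2B had 8.10 and 9.96 CPM in NCI-H1581 and 442 and 432 CPM in NCI-H1581R, a log2 fold change of 5.60 ± 0.22 (adjusted p = 4.93e-05). WNT16 rose from 77.2 and 73.2 CPM to 240 and 184 CPM (1.5 ± 0.19, adjusted p = 0.00413) and made 64.1 and 57.4% of the per-length ligand sum in NCI-H1581R. Of the exon length of WNT2B, 21.5% lies over ST7L on the opposite strand, and the ST7L counts were 544 and 600 before and 740 and 676 after selection (difference 0.25 on the log2 scale, adjusted p = 0.499).

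Other ligands moved at lower levels. WNT11, known mainly from the branch without beta-catenin, had 0.178 and 0.599 CPM in NCI-H1581 and 2.07 and 3.38 CPM in NCI-H1581R (2.75 ± 0.62, adjusted p = 0.0402). Without replicate 2 of NCI-H1581 its log2 fold change was 3.92. WNT10B fell from 15 and 10.4 CPM to 3.06 and 3.0 CPM (-2.05 ± 0.29, adjusted p = 0.00719). WNT6 fell from 2.23 and 1.42 CPM to 0.478 and 0.254 CPM (-2.29 ± 0.59, adjusted p = 0.0623). WNT9A was also called higher, with 3.80 and 4.42 CPM against 9.38 and 7.44 CPM.

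**Figure D2:**
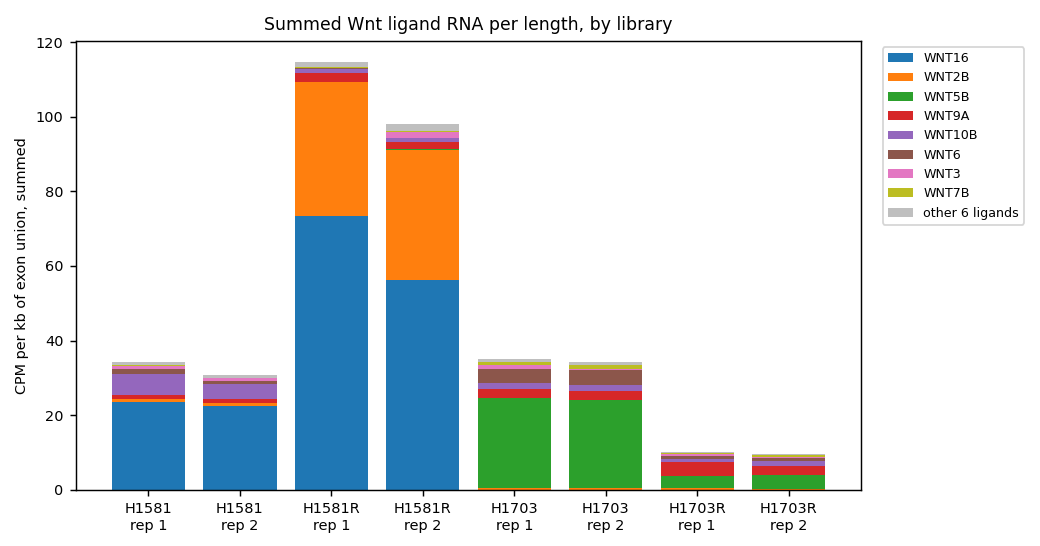
Summed ligand RNA per length in each of the 8 libraries, in CPM per kilobase of exon union, with 1 bar a library and 1 colour a ligand. NCI-H1581R held 114.7 and 98.1 CPM per kb, mostly WNT16 and WNT2B, and NCI-H1703R held 10.2 and 9.54 CPM per kb after 34.9 and 34.2 in NCI-H1703, where WNT5B made most of the sum.

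The receptors of NCI-H1581R shifted among family members. FZD8 had 1.45 and 1.82 CPM in NCI-H1581 and 12.3 and 10.2 CPM in NCI-H1581R (2.77 ± 0.30, adjusted p = 0.00236). FZD1 rose from 4.36 and 4.00 CPM to 11.2 and 9.83 CPM (1.34 ± 0.25, adjusted p = 0.0193). LRP5 fell from 55.9 and 50.3 CPM to 19.1 and 28.6 CPM (-1.14 ± 0.23, adjusted p = 0.0281). The most abundant receptor per length, FZD2, had 105 and 96 CPM against 134 and 109 CPM and was not called (adjusted p = 0.385). LRP6 was not called either.

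FZD6 and FZD10 were less firmly measured. FZD6 fell from 1.40 and 1.65 CPM to 0.319 and 0.533 CPM (-1.82 ± 0.54, adjusted p = 0.0944), and the call was lost with DESeq2 and without any 1 of the 4 libraries, where its log2 fold change ranged from -2.26 to -1.50. FZD10 had 13 and 0 counts in NCI-H1581 and 72 and 48 in NCI-H1581R (3.13 ± 0.89, adjusted p = 0.0812). Its log2 fold change was 8.93 without replicate 1 and 2.02 without replicate 2 of NCI-H1581, and the call was lost with DESeq2.

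RSPO2 stayed the most abundant R-spondin in NCI-H1581R, with 348 and 241 CPM after 241 and 237 CPM (0.31, adjusted p = 0.448). RSPO4 fell from 11.2 and 9.89 CPM to 0.930 and 0.533 CPM (-3.83 ± 0.36, adjusted p = 0.00123). LGR5, an R-spondin receptor that marks stem cells in several epithelia, fell from 1.31 and 1.62 CPM to 0.159 and 0.279 CPM (-2.71 ± 0.62, adjusted p = 0.0418). RSPO3 had 2 and 0 counts in NCI-H1581 and 14 and 21 in NCI-H1581R, a ratio of 16.8 with a counting interval of 4.31 to 143.8. It reached the count minimum only through NCI-H1581R, where it is high, so its call (adjusted p = 0.0930) is a description. Its log2 fold change was 7.15 without replicate 1 and 2.87 without replicate 2 of NCI-H1581, and the call was lost with DESeq2 and without the filter on low counts.

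The extracellular inhibitors changed in both directions. DKK2 fell from 140 and 156 CPM to 2.55 and 2.26 CPM (-5.93 ± 0.22, adjusted p = 4.16e-05). WIF1, which binds Wnt proteins directly, fell from 172 and 150 counts to 2 and 2, a ratio of 84.0 with a counting interval of 32.5 to 310.3 (adjusted p = 0.000537). KREMEN2, a DKK receptor and the most abundant gene of this role per length, fell from 150 and 129 CPM to 90.7 and 74.4 CPM (-0.74 ± 0.18, adjusted p = 0.0482). Of its exon length, 15.3% lies over PKMYT1 on the opposite strand. PKMYT1 had 2818 and 3068 counts before and 2168 and 2202 after selection (-0.49, adjusted p = 0.113). The part of this overlap in the KREMEN2 change was not tested. In DKK2, WIF1 and KREMEN2 both resistant libraries lay below both sensitive ones. The same held for the inhibitor SFRP5, which was not called (adjusted p = 0.167), so this separation adds nothing to the calls.

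DKK3, FRZB and DKK1 rose. DKK3, a family member whose action on Wnt signals is less settled, rose from 7.83 and 6.44 CPM to 25.8 and 23.9 CPM (1.81 ± 0.21, adjusted p = 0.00295). FRZB, a secreted Frizzled-related protein, had 2 and 6 counts in NCI-H1581 and 64 and 86 in NCI-H1581R (4.13 ± 0.69, adjusted p = 0.0108). On the opposite strand USP47 covers 47.5% of the DKK3 exon length, and its own log2 fold change was 0.10 (adjusted p = 0.900). The FRZB log2 fold change was 4.96 without replicate 2 of NCI-H1581. DKK1, which blocks LRP5 and LRP6, rose from 11.4 and 7.51 CPM to 17.5 and 16.4 CPM (0.86 ± 0.25, adjusted p = 0.0858).

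The feedback genes did not move together. AXIN2 fell from 235 and 225 CPM to 95 and 115 CPM (-1.12 ± 0.17, adjusted p = 0.0103). RNF43 rose from 1.04 and 0.699 CPM to 11.8 and 15.8 CPM (4.01 ± 0.36, adjusted p = 0.00103), and NKD1 from 15.6 and 14.8 CPM to 23.0 and 28.6 CPM (0.77 ± 0.20, adjusted p = 0.0655). LEF1, the TCF/LEF factor that is itself a target, rose from 12.6 and 11.4 CPM to 29.8 and 48.3 CPM (1.72 ± 0.28, adjusted p = 0.0114). NKD2, ZNRF3, TCF7, TCF7L1 and TCF7L2 were not called. The annotation places 68.4% of the RNF43 exon length under a second gene model on the same strand, for which the deposited counts held no row. For AXIN2 this share is 25.3%, under a gene model with 0 to 7 counts a library.

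The calls in NCI-H1581R held to different degrees. Leaving out a library of NCI-H1581 lowered the number of calls, and leaving out a library of NCI-H1581R raised it. Both held over all genes as well as over the Wnt genes. The genes called whichever library was left out were 11, namely WLS, WNT2B, WNT10B, WNT16, FZD8, RSPO4, DKK2, DKK3, FRZB, WIF1 and RNF43. With the replicates paired, WNT5A (12 and 17 counts, then 0 and 2) and SFRP2 (0 and 0 counts, then 12 and 16) were also called, beside 18.1% of all genes, with adjusted p of 0.0880 and 0.0850 in place of 0.10 and 0.112. SFRP2 reached the count minimum only through NCI-H1581R, where it is high, and its call is a description. Fibroblast markers moved with this comparison, and their part in the result was not tested. The list of COL1A1, COL1A2, COL3A1, DCN, LUM and PDGFRB summed to 6501 to 6726 CPM in NCI-H1581 and 3130 to 3278 CPM in NCI-H1581R, with 5 of 6 called lower, and DCN fell from 1647 and 1737 counts to 9 and 3. Of the mesenchymal list 2 of 4 were called higher and 0 lower, with FN1 at 0.623 and 1.42 CPM before and 745 and 919 CPM after and ZEB1 higher by 3.67 on the log2 scale. Of the squamous list 2 of 5 tested (TP63 and SOX2) and of the adenocarcinoma list 1 of 3 (NKX2-1) were called higher, 1 of 5 epithelial genes (EPCAM) was called lower, and CD68 was lower by 2.37.

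In NCI-H1703R, 11 of the 54 Wnt genes were called against NCI-H1703, 10 of them lower. Over all genes 14.7% were called, 7.06% higher and 7.67% lower, and 20.4% of the Wnt genes. The median log2 fold change was -0.32 over the Wnt genes and 0.00 over all genes. With the replicates paired, 17 were called, beside 34.9% of all genes, and the 6 added were FZD6 higher and WNT7A, FZD2, NOTUM, NKD2 and ZNRF3 lower (adjusted p of the paired fit from 0.00231 for FZD6 to 0.0507 for WNT7A). WNT7A, with 11 counts in NCI-H1703 and 0 in NCI-H1703R, reached the count minimum only through NCI-H1703, and its call is a description. Of the 7 R-spondin and LGR genes 0 were called by edgeR with or without the pairing, 0 by DESeq2 and 0 at an unadjusted p under 0.05. Except for LGR4, with 23 to 56 counts, these genes had 15 counts or fewer in each library of this line, so few changes could have been called. DESeq2 gave no adjusted p for RSPO1, RSPO3, RSPO4, LGR5 and LGR6 there.

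Both genes of the release machinery changed, in opposite directions. WLS had 18.4 and 18.3 CPM in NCI-H1703 and 1.59 and 2.27 CPM in NCI-H1703R, and it fell by 3.22 ± 0.20 on the log2 scale (adjusted p = 0.00134). PORCN rose from 5.46 and 5.41 CPM to 11.4 and 10.0 CPM (1.01 ± 0.17, adjusted p = 0.0244), and it was the 1 Wnt gene called higher.

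Ligand transcripts fell in sum, from 34.9 and 34.2 CPM per kb in NCI-H1703 to 10.2 and 9.54 CPM per kb in NCI-H1703R. WNT5B fell from 102 and 101 CPM to 13.9 and 15.8 CPM (-2.74 ± 0.10, adjusted p = 0.000345). It made 69.2 and 69.5% of the ligand sum in NCI-H1703. In NCI-H1703R the first ligand per exon length was WNT9A in replicate 1 (36.4%) and WNT5B in replicate 2 (38.9%), and it was WNT5B in both with the length of the canonical transcript, an alternative chosen after seeing the data. WNT6 fell from 6.57 and 6.82 CPM to 1.19 and 1.32 CPM (-2.38 ± 0.25, adjusted p = 0.00523) and WNT7B from 4.38 and 5.20 CPM to 1.16 and 1.95 CPM (-1.58 ± 0.32, adjusted p = 0.0396). Of the 14 ligands 0 were called higher by edgeR or DESeq2, and 0 were higher at an unadjusted p under 0.05.

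Of the 12 receptors and the 10 extracellular inhibitors 2 each fell and 0 rose. FZD8 fell from 1.08 and 1.11 CPM to 0.291 and 0.317 CPM (-1.80 ± 0.49, adjusted p = 0.0850), a call lost with DESeq2. LRP5 fell from 67.5 and 61.0 CPM to 45.6 and 45.9 CPM (-0.46 ± 0.09, adjusted p = 0.0390). FZD6, the most abundant receptor per length, had 54.2 and 59.8 CPM against 66.4 and 81.4 CPM and was not called (adjusted p = 0.120, and 0.00231 with the replicates paired). DKK1 fell from 1.59 and 1.91 CPM to 0.370 and 0.554 CPM (-1.88 ± 0.45, adjusted p = 0.0607). WIF1 fell from 33 and 24 counts to 3 and 3, a ratio of 10.2 with a counting interval of 4.41 to 29.0 (adjusted p = 0.0329). Of the inhibitors 0 were higher by DESeq2 or at an unadjusted p under 0.05, and of the receptors 1 (FZD6) was by each.

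AXIN2 fell from 14.9 and 14.7 CPM to 2.85 and 2.75 CPM (-2.37 ± 0.17, adjusted p = 0.00167), the largest change among the feedback genes and TCF/LEF factors of this line that were called. TCF7L1, the TCF/LEF factor mostly known as a repressor, fell from 16.2 and 15.1 CPM to 11.4 and 10.9 CPM (-0.46 ± 0.13, adjusted p = 0.0941), a call lost with DESeq2. Leaving out 1 of the 4 libraries lowered the number of calls, over all genes as well as over the Wnt genes. WLS, WNT5B and AXIN2 were called in all 4 of these fits. The epithelial list fell from 73.3 to 75.6 CPM in NCI-H1703 to 6.76 to 8.41 CPM in NCI-H1703R, with 1 of 5 called lower (KRT18), and the squamous list from 38.3 to 38.6 CPM to 1.005 to 1.53 CPM, with 1 of 5 called (SOX2, from 1407 and 1244 counts to 21 and 7). Of the mesenchymal list 2 of 4 were called lower, CDH2 from 50.2 and 48.6 CPM to 1.08 and 1.16 CPM and FN1 by 0.74, and 1 of 6 fibroblast genes (COL1A1, 4.65 on the log2 scale) and CD68 (1.23) were called higher. The part of these markers in the results was not tested.

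**Figure D3:**
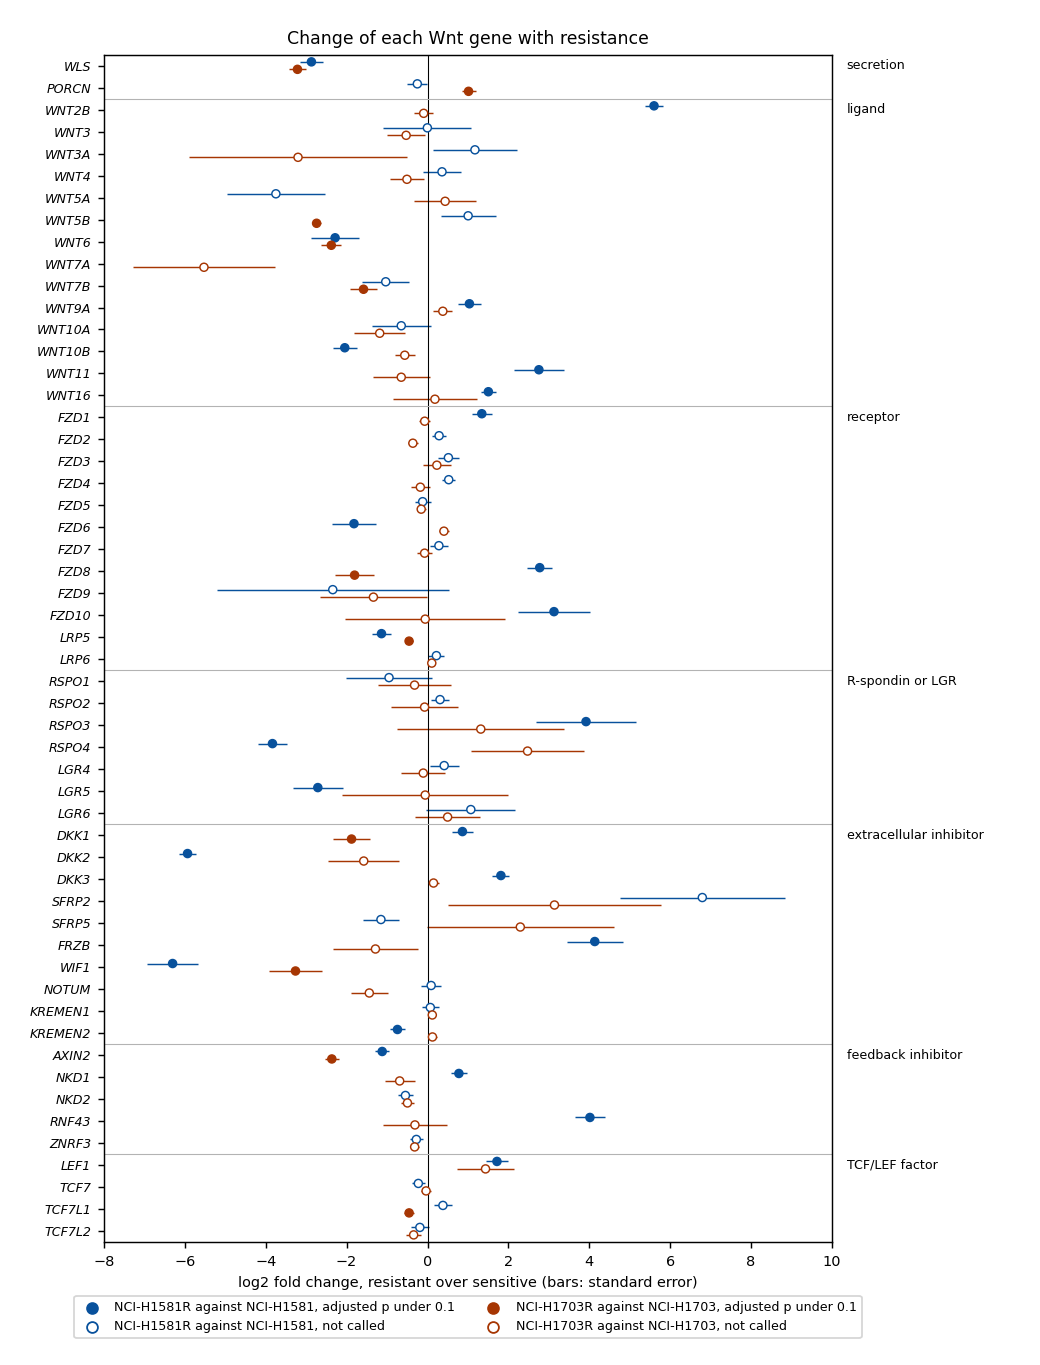
Log2 fold change of each Wnt gene in NCI-H1581R against NCI-H1581 and in NCI-H1703R against NCI-H1703, with bars of 1 standard error and filled points at an adjusted p under 0.1. A gene with no count in a line has no point for it. In NCI-H1581R filled points lay on both sides of 0 (14 higher, 11 lower), and in NCI-H1703R 10 of 11 lay below 0.

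Called in both resistant variants were 7 genes. WLS, WNT6, LRP5, WIF1 and AXIN2 fell in both. FZD8 and DKK1 rose in NCI-H1581R and fell in NCI-H1703R. The 7 are 13.0% of the Wnt genes, beside 3.38% of all genes called in both, and the 5 are 9.26%, beside 0.95%. In NCI-H1581R alone 18 were called (33.3%, beside 11.7% of all genes), in NCI-H1703R alone 4 (7.41%, beside 11.4%), and in neither 25 (46.3%, beside 73.6%). WLS started from like levels in the lines, with group means of 18.2 ± 1.75 CPM (SD, n = 2) in NCI-H1581 and 18.3 ± 0.0565 CPM in NCI-H1703 (adjusted p = 0.934 between the lines), and its change did not differ by the interaction test (-0.37, adjusted p = 0.663). The interaction was not called for LRP5 (0.66, adjusted p = 0.166) or WIF1 (3.01, adjusted p = 0.224) either. With DESeq2, which called 19.5% of all genes there, LRP5 and WIF1 were called. For AXIN2 it was called by edgeR. The gene fell further in NCI-H1703R, by an additional 1.27 on the log2 scale (log2 difference of changes -1.27 ± 0.22, adjusted p = 0.00817).

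**Figure D4:**
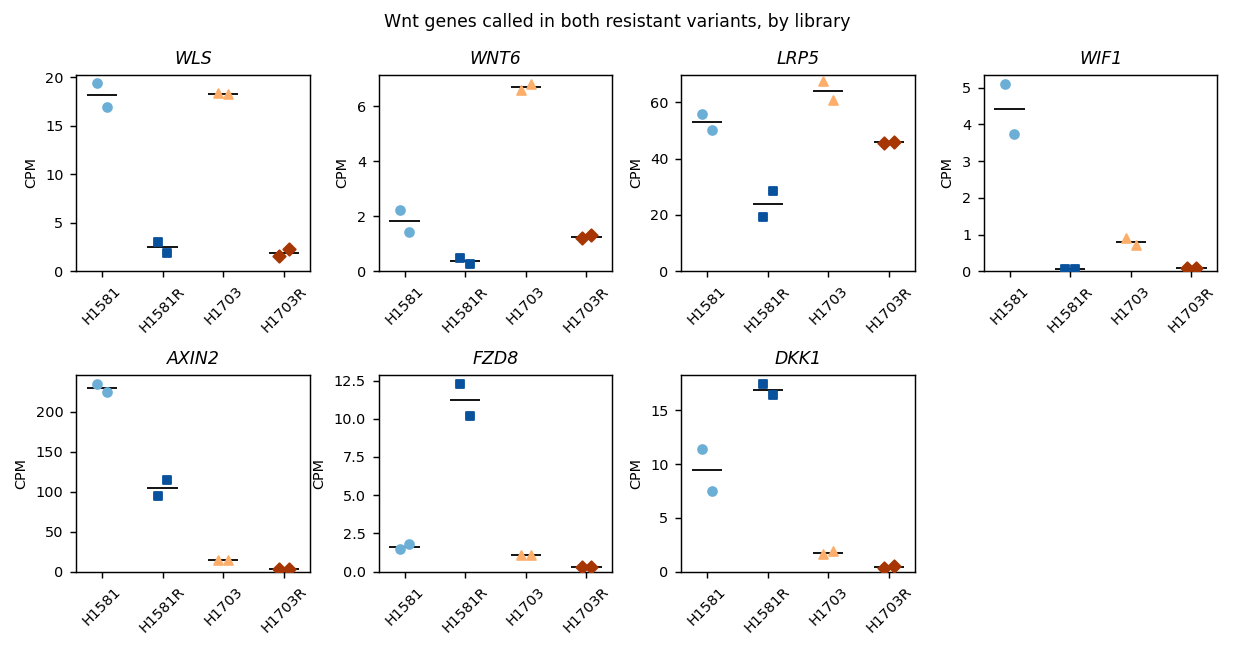
CPM of the 7 Wnt genes called in both resistant variants, with 1 point a library and a line at the mean of each variant. WLS, WNT6, LRP5, WIF1 and AXIN2 lay lower in both resistant variants, while FZD8 and DKK1 lay higher in NCI-H1581R and lower in NCI-H1703R.

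The change with resistance differed between the lines for 20 of the 54 Wnt genes (37.0%, beside 15.4% of all genes). The change was higher in NCI-H1703R for 6 of them and lower for 14, beside 6.93% and 8.47% of all genes. WNT2B carried the largest called difference among genes with counts well above the floor in both lines (-5.72 ± 0.25, adjusted p = 9.42e-06), and it had 4.33 and 3.86 CPM in NCI-H1703 and 4.02 and 3.48 CPM in NCI-H1703R. FZD8 (-4.60 ± 0.57, adjusted p = 0.00166), DKK1 (-2.76 ± 0.54, adjusted p = 0.0149), DKK3 (-1.69 ± 0.24, adjusted p = 0.00374), FZD1 (-1.43 ± 0.25, adjusted p = 0.00836) and FZD6 (2.20 ± 0.43, adjusted p = 0.0146) held without any 1 library, as did WNT2B, WNT5B and AXIN2. Without any 1 library of NCI-H1703 or NCI-H1703R, or without replicate 1 of NCI-H1581, the number of calls fell. It fell over all genes as well as over the Wnt genes. For RSPO4, DKK2 and FRZB the libraries of NCI-H1703 and NCI-H1703R held 0 to 5 counts, and the DKK2 call was lost with the replicates paired (adjusted p = 0.119), where 18.9% of all genes were called.

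Genes of the pathway outside these roles were counted from fixed lists. Over all genes 7.63% rose and 7.44% fell in NCI-H1581R, and 7.06% rose and 7.67% fell in NCI-H1703R. Of the 16 genes of the cytoplasmic core, which holds the beta-catenin destruction complex and the Dishevelled proteins, 3 rose and 0 fell in NCI-H1581R (BTRC by 0.99, adjusted p = 0.0130), and 2 rose and 1 fell in NCI-H1703R. These 18.8% in each variant were near the 15.1% and 14.7% of all genes. By DESeq2 and at an unadjusted p under 0.05, 0 of them were lower in NCI-H1581R. Neither CTNNB1 nor APC was called in either. Of the 9 nuclear cofactors 3 rose and 3 fell in NCI-H1581R. Among these TLE3, a Groucho corepressor, rose from 31.6 and 30.2 CPM to 128.6 and 167.3 CPM (2.27 ± 0.20, adjusted p = 0.000895), and among its relatives TLE1 fell by 1.42 and TLE4 by 2.29. In NCI-H1703R 0 of the 9 were called by edgeR and 0 by DESeq2, and 2 were lower at an unadjusted p under 0.05.

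In the branch that works without beta-catenin, 4 of 14 tested genes rose and 0 fell in NCI-H1581R, and 0 rose and 5 fell in NCI-H1703R. The 0 in each direction also held for DESeq2 and at an unadjusted p under 0.05. GPC3, a glypican that binds Wnt proteins, rose from 34.5 and 54.1 CPM to 959.5 and 1273 CPM in NCI-H1581R (4.66 ± 0.32, adjusted p = 0.000354). Of the formins, DAAM1 rose there by 4.00 (adjusted p = 0.000664) and DAAM2 by 3.28 (adjusted p = 0.000370). In NCI-H1703R the receptor ROR2 fell from 7.35 and 8.04 CPM to 2.93 and 3.51 CPM (-1.22 ± 0.21, adjusted p = 0.0244), and the cadherin CELSR3 fell by 1.06.

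Of 6 tested extracellular modulators outside the set, 1 rose and 1 fell in NCI-H1581R. APCDD1, a membrane inhibitor of Wnt signals, rose from 0.326 and 0.200 CPM to 29.8 and 30.5 CPM (6.86 ± 0.33, adjusted p = 0.000102), and DKK4 fell from 18.6 and 9.61 CPM to 0.239 and 0.533 CPM (-5.14 ± 0.56, adjusted p = 0.00237). In NCI-H1703R 1 of the 6 fell and 0 rose. The 1 was TRABD2A, from 37.5 and 33.8 CPM to 20.4 and 21.4 CPM (-0.74 ± 0.11, adjusted p = 0.0142). Of 11 other reported targets 3 rose and 1 fell in NCI-H1581R, SP5 by 1.75 ± 0.19 (adjusted p = 0.00220) and SOX9 by 2.21 ± 0.23 (adjusted p = 0.00193) among those that rose and FOSL1 the one that fell. In NCI-H1703R, 2 fell and 0 rose, 0 also by DESeq2 or at an unadjusted p under 0.05. CCND1, which encodes cyclin D1 and has many other inputs, fell there from 92.0 and 88.4 CPM to 13.2 and 16.9 CPM (-2.55 ± 0.13, adjusted p = 0.000795), and EPHB2 fell by 1.65.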

How the data were processed

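RNA was sequenced in 8 libraries, 2 replicates of each sensitive line and each resistant variant, grouped by the cell line and variant in their labels. The authors trimmed reads with cutadapt, ran Salmon on GRCh38 transcripts and collapsed its output to gene level through tximport. What they deposited is a table of estimated counts, in whole numbers and not normalised. The Salmon version, annotation, tximport scaling and strandedness were not given in the sources used here, so a gene that overlaps another is uncertain. The replicates are repeats of 1 procedure, so p-values measure the spread between these libraries, which may be technical. Replicates differed by more than sampling noise (their chi-square was 24.6 to 103 per degree of freedom).

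Fold changes were computed with edgeR 4.0.16 in R 4.3.3 (TMM factors, quasi-likelihood test, two-sided) on the 18203 genes with at least 10 counts in total, for each line's 4 libraries, the sensitive lines, and, for the interaction (the change in NCI-H1703 minus that in NCI-H1581), all 8. A gene was called at a Benjamini-Hochberg adjusted p under 0.1. The standard error was the log2 fold change divided by the square root of the F statistic. With 2 libraries a variant the main fits within a line had 2 residual degrees of freedom, and fewer with the replicates paired or a library left out. Ratios with few counts carry exact 95% intervals, which, like the floor of 3 counts, cover counting error only. Lengths came from GENCODE exons on GRCh38. The tests were checked on simulated data. Only genes with a mean of at least 50 counts were changed there, so the power at fewer counts was not measured. Of 50 genes changed 2-fold, 10 were recovered in NCI-H1581, 33 in NCI-H1703, 12 for the interaction and 33 between the sensitive lines. Of 50 changed 4-fold, these were 40, 43, 37 and 45. A gene that was not called may therefore have changed, and the power differed between the comparisons. Among the genes left unchanged 5, 6, 19 and 19 were called, in the same order of comparisons.

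The Wnt genes and lists were chosen with earlier results of these data known, and no list is support for itself. All genes with at least 10 counts were accounted for. Values in every library were given for those called in a resistant variant or by the interaction with a mean of at least 1 CPM, up to 15 a line by size, for up to 10 called between the sensitive lines with at least 5 CPM, and for the first of each role per length. WNT9A, RSPO3, WNT5A and SFRP2 were added after their values were seen. Genes of the other pathway lists that were named as changed had been called with at least 5 CPM, at most 4 a list and line. Further genes that met this rule were left unnamed. The comparison of the sensitive lines and the interaction share libraries with the other comparisons, while those within each line share none with each other. No overlap between comparisons was tested.

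The methods state that the procedure was repeated for the second replicate, so same-numbered replicates within a line were taken as paired. Across 12102 genes their deviations correlated with r = 0.135 (NCI-H1581) and 0.365 (NCI-H1703). Between lines r was -0.424 to -0.0166. Alternatives were DESeq2 1.42.0, RLE factors, no filter, at least 10 counts in every library, an adjusted p under 0.05, the pairing, a single fit of 8 libraries, leaving out each library (the lone library is then assumed to vary like the others) and, chosen after seeing the data, legacy quasi-dispersions and canonical transcript lengths.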

Additional observations from a re-analysis of the deposited data

Results flagged for a closer look

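The change with resistance differed between NCI-H1703 and NCI-H1581 for 20 Wnt genes by edgeR's interaction test, each value being the log2 fold change in NCI-H1703R minus that in NCI-H1581R. It was higher in NCI-H1703R for PORCN (1.24), WNT10B (1.46), FZD6 (2.20), RSPO4 (6.29), DKK2 (4.33) and KREMEN2 (0.84). It was lower for the ligands WNT2B (-5.72), WNT5B (-3.77) and WNT11 (-3.43), the receptors FZD1 (-1.43), FZD2 (-0.67) and FZD8 (-4.60), the inhibitors DKK1 (-2.76), DKK3 (-1.69), FRZB (-5.44) and NOTUM (-1.55), the feedback genes AXIN2 (-1.27), NKD1 (-1.49) and RNF43 (-4.35), and TCF7L1 (-0.86). Some values rest on single libraries. RNF43 was -2.77 without replicate 1 of NCI-H1703, where the call was lost, and -5.00 without replicate 2. RSPO4 ran from 5.52 (without replicate 1 of NCI-H1703R) to 8.68 (without replicate 1 of NCI-H1703), WNT11 from -4.60 (without replicate 2 of NCI-H1581) to -2.80 (without replicate 2 of NCI-H1703R), and FRZB from -6.28 (without replicate 2 of NCI-H1581) to -4.28 (without replicate 1 of NCI-H1703). FZD2 and NOTUM were called in neither line's own main fit. With the replicates paired, or with at least 10 counts in every library, both were called lower in NCI-H1703R. With 2 libraries a variant, no library could be tested as an outlier within its variant.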

How the results depend on the processing

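No called log2 fold change turned its sign under the alternatives run. With the replicate number as a block, 17 in place of 11 Wnt genes were called in NCI-H1703R, and at an adjusted p under 0.05 the interaction was called for 11 in place of 20. The cause was not tested. Leaving out 1 library gave 12 to 28 calls in NCI-H1581R, 3 to 6 in NCI-H1703R, 9 to 20 for the interaction and 31 to 34 between the sensitive lines. The other counts stayed within 1.5 times the main ones. The block changed no count but that of NCI-H1703R by more than 1.5 times, and of the calls made without it only DKK2 in the interaction was lost. In every setting other than leaving out a library or the stricter threshold, and where the gene passed that setting's filter, 22 of 25, 8 of 11 and 17 of 20 calls held in NCI-H1581R, NCI-H1703R and the interaction. The calls lost were FZD6, FZD10 and RSPO3 in NCI-H1581R, FZD8, LRP5 and TCF7L1 in NCI-H1703R, and FZD2, DKK2 and FRZB in the interaction. Depth limits the 12 genes called with resistance or by the interaction that have under 10 counts in a library of at least 1 variant, WNT5B, WNT11, WNT16, FZD10, RSPO3, RSPO4, LGR5, DKK2, FRZB, WIF1, RNF43 and LEF1.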

Other observations

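Replicates disagreed on a few Wnt genes of NCI-H1581R. WNT3 had 0 counts in replicate 1 and 324 in replicate 2, after 166 and 143 in NCI-H1581 (log2 fold change of 0.00 with an SE of 1.09). RSPO1, an R-spondin, had 0 and 16 counts there, after 17 and 13. In NCI-H1703 the replicates of WNT3 held 195 and 68 counts. These genes were singled out after their values were seen.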
